A study of Homo sapiens with 12 samples.

Results

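FADS1, FADS2, FADS3, ELOVL1, ELOVL5, ELOVL6 and ELOVL7 encode fatty acid desaturases and elongases, the membrane enzymes of the endoplasmic reticulum that add double bonds and carbons to fatty acids. They were taken by name, with earlier results of these data known, and are 7 of the 19251 genes listed in the deposited count files. The 7 are not the whole family, and relatives such as ELOVL4 are given separately. All 7 passed the filter on low values, which left 17616 genes for testing. RNA was sequenced from 2 established human ovarian cancer cell lines, CAOV3, labelled epithelial high grade serous, and TOV21G, labelled clear cell. Both lines carry the genotype label WT, and each was sampled as 3 untreated control cultures and 3 cultures given ovarian cancer ascites, the fluid that collects in the abdomen of patients. The ascites made up 10% of the medium and stayed on the cells for 16 hours, and all wells, controls included, held medium with fetal bovine serum. The donors of the ascites, whether it was pooled, and whether the 3 replicates were separate cultures or passages are not given in the labels, so the p-values measure only the spread between these samples.

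Mammalian cells cannot make polyunsaturated fatty acids from scratch, and instead build them from the essential dietary fatty acids linoleic and alpha-linolenic acid. FADS2 puts in the first new double bond, an elongase such as ELOVL5 lengthens the chain, and FADS1 adds the next double bond to give arachidonic and eicosapentaenoic acid. FADS3, their close relative, has been shown to act on sphingoid bases. Although the 7 genes go under the name of polyunsaturated fatty acid enzymes, ELOVL1, ELOVL6 and ELOVL7 are known to lengthen mainly saturated and monounsaturated chains. The transcription factor SREBP-1, made from SREBF1, is known to drive FADS1, FADS2, ELOVL6 and the stearoyl-CoA desaturase SCD, and polyunsaturated fatty acids are known to lower SREBP-1 activity in liver cells.

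The 3 desaturase genes stand side by side on chromosome 11 (GENCODE release 29, GRCh38). FADS1 (ENSG00000149485) spans 61799625 to 61829318 on the minus strand, FADS2 (ENSG00000134824) spans 61792980 to 61867354 on the plus strand, and FADS3 (ENSG00000221968) spans 61873519 to 61892051 on the minus strand. The annotated FADS1 and FADS2 genes overlap, with 490 exonic bases shared on opposite strands, and FADS2 shares 49 exonic bases with FEN1 on the same strand. Whether the counting used strand is not given in the sources used here, so reads from those bases could not be assigned to one gene with certainty. The 2 RefSeq starts used for FADS2, at 61816203 and 61816404, lie 800 and 599 bases from the FADS1 start used, at 61817003. From these starts the 2 genes are read toward each other, and both FADS2 starts lie within FADS1. GENCODE extends both genes upstream of these starts, and their outer ends were not searched for motifs. The promoter windows of the 3 genes are printed because FADS1 and FADS2 fell with ascites in CAOV3 and FADS3 did not pass the test. They come from RefSeq (GRCh38.p14), run from 250 bases before to 50 bases after the start, and are written in the direction of the gene, with CCAAT boxes and GC boxes (GGGCGG) on either strand in capitals. The FADS1 window is chr11:61816954-61817253 on the minus strand, the window of the second FADS2 start is chr11:61816154-61816453 on the plus strand, and the FADS3 window is chr11:61891496-61891795 on the minus strand.
FADS1: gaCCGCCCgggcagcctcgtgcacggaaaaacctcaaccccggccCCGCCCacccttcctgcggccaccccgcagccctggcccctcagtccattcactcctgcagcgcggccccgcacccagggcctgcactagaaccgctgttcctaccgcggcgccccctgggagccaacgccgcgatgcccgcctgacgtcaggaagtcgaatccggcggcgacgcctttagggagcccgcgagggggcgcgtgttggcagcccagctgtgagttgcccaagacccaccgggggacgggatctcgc
FADS2: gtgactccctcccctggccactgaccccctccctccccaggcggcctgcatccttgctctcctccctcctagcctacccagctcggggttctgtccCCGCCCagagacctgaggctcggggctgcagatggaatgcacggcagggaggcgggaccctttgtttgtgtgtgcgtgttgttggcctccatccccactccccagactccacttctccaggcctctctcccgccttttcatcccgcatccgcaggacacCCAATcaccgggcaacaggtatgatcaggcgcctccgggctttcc
FADS3: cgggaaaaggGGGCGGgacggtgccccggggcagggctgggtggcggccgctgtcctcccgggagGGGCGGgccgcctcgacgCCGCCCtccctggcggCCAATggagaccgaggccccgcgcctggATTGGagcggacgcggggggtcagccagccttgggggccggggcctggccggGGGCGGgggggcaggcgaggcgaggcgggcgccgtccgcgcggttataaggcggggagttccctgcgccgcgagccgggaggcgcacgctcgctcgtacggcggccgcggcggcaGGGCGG

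The FADS1 window held 2 GC boxes, the printed FADS2 window held 1 CCAAT box and 1 GC box, and the FADS3 window held 2 CCAAT boxes and 5 GC boxes, with no bases shared between matches. The window of the first FADS2 start held none of these motifs. A sterol regulatory element, searched as TCACNCCAC on both strands, matched in 0 of the 8 windows available for the 7 genes, while 1.13% of the 35116 promoter windows of that length held one. CCAAT matched in 4 of the 8 windows (34.6% of all windows) and GGGCGG in 6 of the 8 (45% of all windows). These matches are letters in a window and were not tested as binding sites, and an absent match says only that those letters are not in the window.

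In CAOV3 cells, FADS2 fell by 32.0% and FADS1 fell by 19.8% with ascites, and the other 5 genes did not pass the test. FADS2 read counts, scaled by the authors for library size (normalised counts), were 2770, 2679 and 2836 in the CAOV3 controls and 1942, 1716 and 1986 with ascites. Every ascites library lay below every control. The log2 difference was -0.56 (SE 0.06, 95% interval -0.69 to -0.42), with an adjusted p of 0.000334 in limma. FADS1 normalised counts were 11044, 10865 and 11311 in the CAOV3 controls and 8771, 8831 and 9040 with ascites. Those groups did not overlap either, and the log2 difference was -0.32 (SE 0.04, 95% interval -0.40 to -0.24, limma adjusted p = 0.000614). Both genes passed the test whichever single library was left out. In bulk RNA, fewer cells of a type and less RNA per cell cannot be told apart.

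With 2 of 7 genes called in CAOV3, both lower, the background was 1.73% of the 17616 genes called in either direction and 1.1% called lower. The median log2 difference of the 7 genes was -0.01, beside -0.00 over all genes tested. The groups did not overlap for 4 of the 7 genes, 3 lower and 1 higher, against 24.2% of all genes (12.8% lower and 11.4% higher). The ratio of FADS2 to FADS1 normalised counts within each library sets the size of the 2 falls side by side. It was 0.251, 0.247 and 0.251 in the CAOV3 controls and 0.221, 0.194 and 0.220 with ascites, without overlap. An exact permutation test, two-sided, gave p = 0.1, which is the smallest that 3 libraries against 3 allow.

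FADS3 normalised counts in CAOV3 were 682, 648 and 682 in the controls and 649, 645 and 702 with ascites, and the groups overlapped. Its log2 difference was -0.01, with a 95% interval from -0.15 to 0.13. FADS3, next to FADS2 on the chromosome, thus gave an interval that did not reach that of FADS1 (-0.40 to -0.24). The difference between FADS3 and its neighbours was not itself tested.

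**Figure D1:**
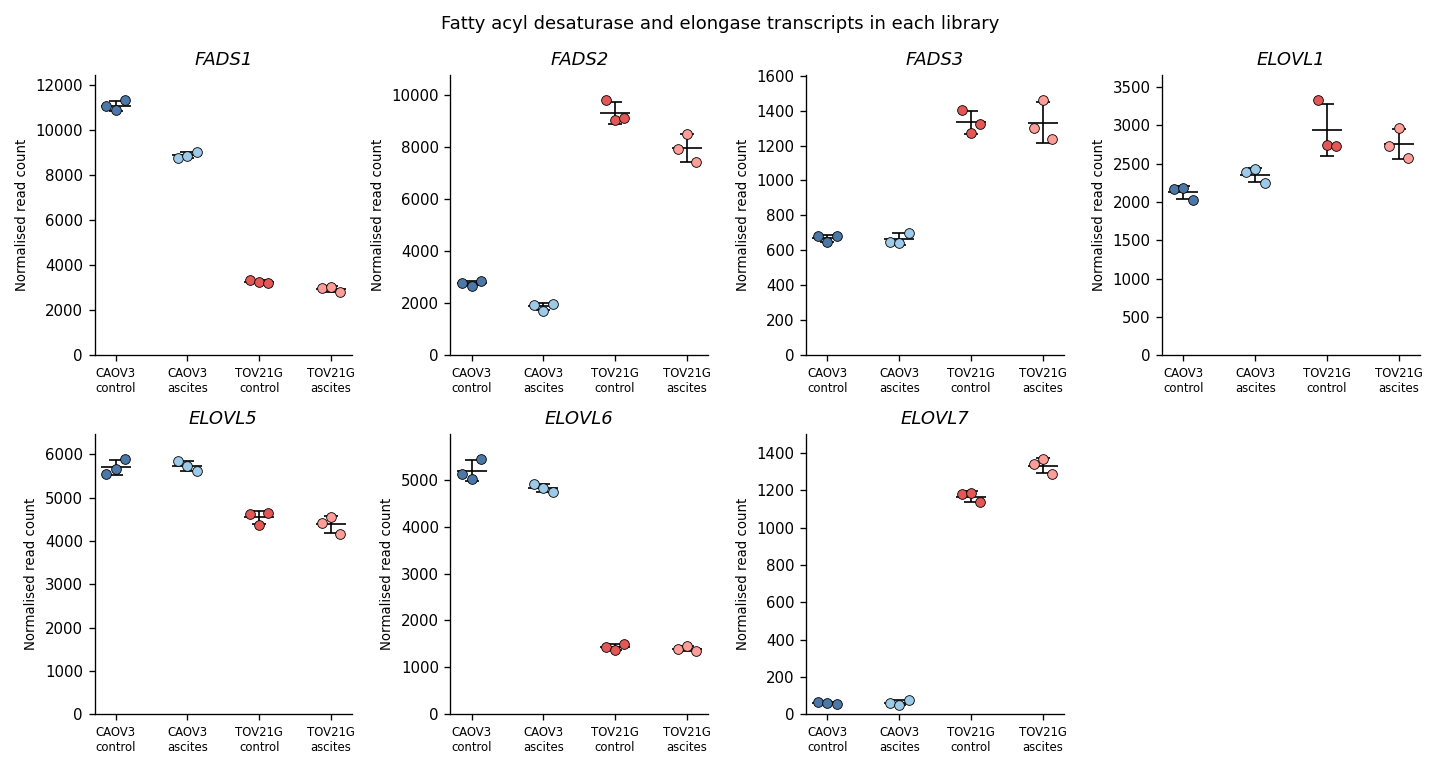
Normalised counts of the 7 genes in each of the 12 libraries (vertical axes, 1 panel per gene, linear and starting at 0), by cell line and treatment (horizontal axis), with each point 1 library, the long line the group mean and the short lines 1 SD on either side (n = 3). The CAOV3 ascites libraries lie below the controls for FADS1 and FADS2, while the lines stand far apart for ELOVL7.

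Among the elongases in CAOV3, none passed the test. ELOVL5 (ENSG00000012660, chromosome 6, 53267398 to 53349179, minus strand), which lengthens the polyunsaturated chains between the steps of FADS2 and FADS1, had 5553, 5670 and 5892 normalised counts in the controls and 5846, 5738 and 5615 with ascites. Its log2 difference was 0.01 (95% interval -0.08 to 0.10, limma adjusted p = 0.99), so a fall of the size seen for FADS1 lay outside its interval. ELOVL6 (ENSG00000170522, chromosome 4, 110045846 to 110199199, minus strand), which lengthens palmitic to stearic acid, had 5129, 5014 and 5439 normalised counts in the controls and 4907, 4832 and 4743 with ascites. These groups did not overlap, but the log2 difference of -0.10 (SE 0.05) had a limma adjusted p of 0.356.

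ELOVL1 (ENSG00000066322, chromosome 1, 43363397 to 43368074, minus strand), which makes very long saturated chains for sphingolipids, was the member with the highest log2 value in CAOV3. Its normalised counts were 2169, 2181 and 2019 in the controls and 2386, 2422 and 2251 with ascites, without overlap. The log2 difference was 0.15 (SE 0.07, limma adjusted p = 0.429), and with only the 6 CAOV3 libraries in the fit the adjusted p was 0.0297, in a fit that called 8.19% of the genes it tested. ELOVL7 (ENSG00000164181, chromosome 5, 60751791 to 60844389, minus strand) lengthens saturated long chains and was scarce in this line. It had 65.8, 59.2 and 52.5 normalised counts in the CAOV3 controls and 62.4, 48.1 and 73.7 with ascites, overlapping, with a log2 difference of 0.04 and a wide 95% interval from -0.24 to 0.31. At this depth, with as few as 47 reads in a library, the data did not narrow the change further than that interval. The size of change that the test could detect was not assessed.

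In TOV21G cells, FADS2 and FADS1 again had the lowest values with ascites, but neither passed the test across all genes. FADS2 normalised counts were 9781, 9009 and 9119 in the TOV21G controls and 7917, 8499 and 7426 with ascites. The groups did not overlap, and the log2 difference was -0.23 (SE 0.06, 95% interval -0.36 to -0.10, limma adjusted p = 0.198). FADS1 normalised counts were 3334, 3259 and 3231 in the TOV21G controls and 2972, 3048 and 2810 with ascites. Again without overlap, its log2 difference was -0.15 (SE 0.04, 95% interval -0.24 to -0.07, limma adjusted p = 0.138).

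Limma called 0 of the 7 genes in TOV21G, where it called 0.409% of all genes. FADS1 and FADS2 were the 2 of 7 with an unadjusted p under 0.05, a share that was 9.17% over all genes. On read counts recovered from the deposited values, edgeR called 0 of the 7 (0.647% of all genes) and DESeq2 called both (adjusted p = 0.0353 for FADS1 and 0.0136 for FADS2, with 1.17% called of the genes it gave an adjusted p). The groups did not overlap for 3 of the 7 genes, 2 lower and 1 higher, against 11.1% of all genes (6.99% lower and 4.16% higher). The ratio of FADS2 to FADS1 was 2.93, 2.76 and 2.82 in the controls and 2.66, 2.79 and 2.64 with ascites, overlapping (two-sided exact permutation p = 0.2).

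The TOV21G ascites libraries differed among themselves in a way that moved with these 2 genes. KCNQ1OT1, a long nuclear RNA, had 95.4, 656 and 234 normalised counts in the controls and 731, 235 and 1511 with ascites. Among the ascites libraries, replicate 2 had the lowest KCNQ1OT1 and the highest FADS1 and FADS2, and replicate 3 had the highest KCNQ1OT1 and the lowest of both. The share of mitochondrial reads in the ascites libraries was 1.61%, 2.71% and 1.49%, again highest in replicate 2. In the controls, KCNQ1OT1 was lowest in control 1, which had the highest FADS1 and FADS2. It was highest in control 2, which had the lowest FADS2, while FADS1 was lowest in control 3. The mitochondrial shares of the controls were 2.18%, 1.77% and 2.35%, highest in control 3 and lowest in control 2. With control 1 and ascites 3 left out together, the log2 differences were -0.14 for FADS2 and -0.11 for FADS1, and the part of these measures in the result was not tested. That omission was chosen after seeing the data.

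The remaining 5 genes in TOV21G were FADS3 and the elongases. FADS3 normalised counts were 1404, 1270 and 1322 in the controls and 1300, 1458 and 1235 with ascites, with a log2 difference of -0.00 (95% interval -0.14 to 0.13). ELOVL7 was the 1 gene higher without overlap, at 1177, 1187 and 1134 normalised counts in the controls and 1338, 1366 and 1289 with ascites. Its log2 difference of 0.19 (SE 0.13) did not pass the test (limma adjusted p = 0.659), with a 95% interval from -0.09 to 0.47.

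The 3 other elongases overlapped between the TOV21G groups. ELOVL1 had 3323, 2744 and 2728 normalised counts in the controls and 2733, 2964 and 2566 with ascites. ELOVL5 had 4613, 4381 and 4640 in the controls and 4422, 4554 and 4169 with ascites. ELOVL6 had 1432, 1363 and 1500 in the controls and 1390, 1455 and 1347 with ascites. No member of this trio moved beyond its spread in TOV21G, and their log2 differences were -0.09, -0.05 and -0.03, with limma adjusted p-values of 0.73, 0.707 and 0.835.

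**Figure D2:**
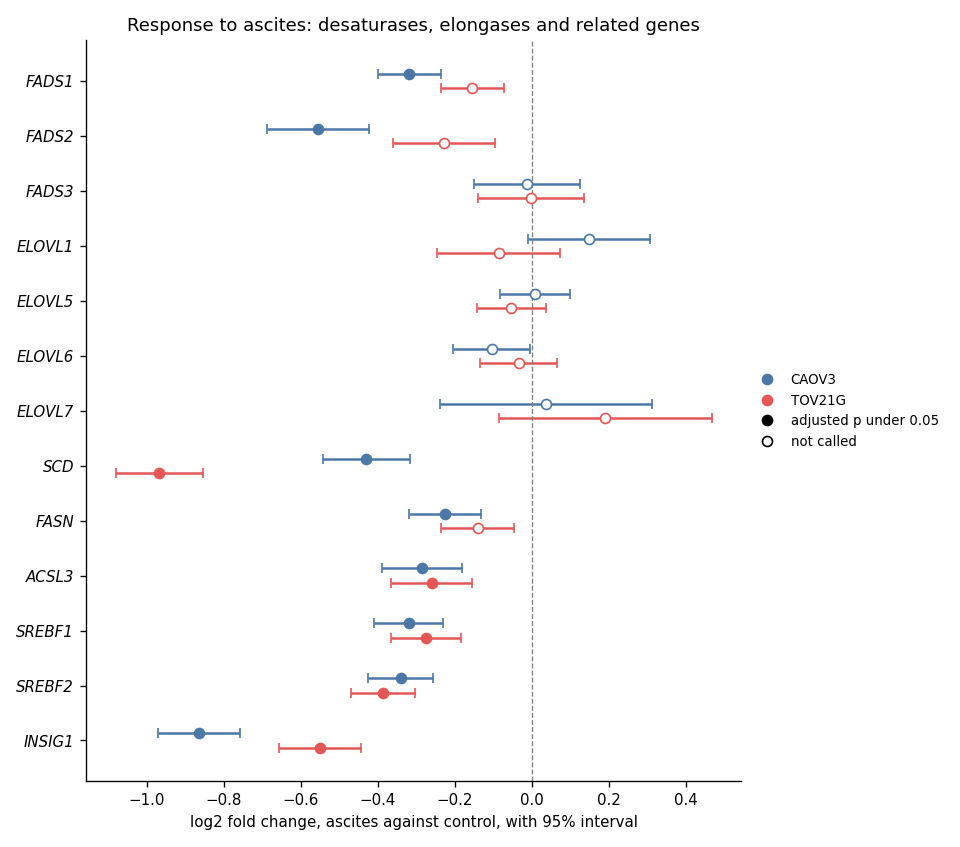
Log2 difference of ascites minus control (horizontal axis) for the 7 genes and the named genes of the pathway (vertical axis), in CAOV3 (blue) and TOV21G (red), with bars for the 95% interval of the limma fit over 12 libraries, not adjusted for the number of genes, and filled points for genes past the adjusted threshold. The intervals of FADS1 and FADS2 lie below 0 in both lines, that of FADS3 spans 0 in both, and SCD lies farthest below 0 in TOV21G.

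Whether the lines responded differently was tested as the TOV21G difference minus the CAOV3 difference. Limma called 0 of the 7 genes, beside 0.545% of all genes, and FADS1, FADS2 and ELOVL1 were the 3 of 7 with an unadjusted p under 0.05 (11.9% of all genes). For FADS2 the value was 0.33 (SE 0.09, 95% interval 0.14 to 0.52, limma adjusted p = 0.162), so the TOV21G value lay nearer 0. The count-based tools called this 1 gene of the 7, with adjusted p-values of 0.0253 in edgeR, which called 0.84% of all genes, and 0.0111 in DESeq2, which called 1.8% of the genes it gave an adjusted p. FADS1 gave 0.16 (SE 0.05, limma adjusted p = 0.275) and ELOVL1 gave -0.23 (limma adjusted p = 0.41), and neither was called by any of the 3 tools.

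Without ascites, the 2 lines held opposite balances of the desaturase pair. FADS1 was 3.38-fold lower in TOV21G controls (3275 ± 53.3 normalised counts, SD, n = 3) than in CAOV3 controls (11073 ± 224), while FADS2 was 3.37-fold higher (9303 ± 418 against 2762 ± 78.8). The limma adjusted p-values were 4.95e-14 for FADS1 and 6.46e-12 for FADS2. Of the 7 genes, 4 were higher and 3 lower in TOV21G, and 7 of 7 passed the test. So did 82.2% of all genes in this comparison of unlike cell lines (40.8% higher and 41.4% lower). FADS3 was 1.98-fold higher in TOV21G (log2 difference 0.99, limma adjusted p = 4.26e-09).

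The elongases also differed between the lines at baseline. ELOVL7 was 19.5-fold higher in TOV21G, with a log2 difference of 4.28 (SE 0.13, limma adjusted p = 1.24e-12). ELOVL6 was 3.63-fold lower, with a log2 difference of -1.86 (limma adjusted p = 2.03e-13). ELOVL1 and ELOVL5 differed less, by 0.46 (limma adjusted p = 5.57e-05) and -0.33 (limma adjusted p = 6.34e-06) on the log2 scale. The control groups did not overlap for any of the 7 genes, against 82.6% of all genes.

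**Figure D3:**
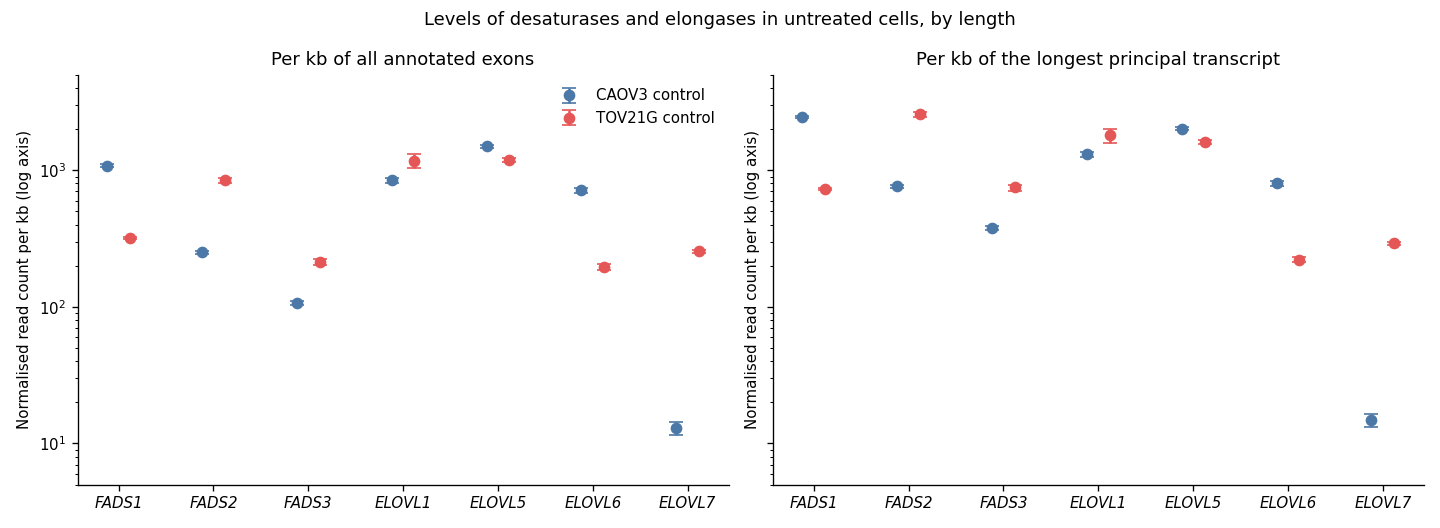
Control levels of the 7 genes in both lines, as normalised counts per kilobase (vertical axes, log scale) of all annotated exons (left panel) or of the longest principal transcript (right panel), with points for the mean of 3 libraries and bars for 1 SD on either side. FADS1 lies above FADS2 in CAOV3 and below it in TOV21G, and ELOVL7 is the lowest gene in CAOV3.

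Levels between genes were compared per kilobase, once over all annotated exon bases and once over the longest principal transcript. In CAOV3 controls FADS1 had 1082 normalised counts per kilobase of exon and FADS2 had 250.5, and in TOV21G controls FADS1 had 320 and FADS2 had 844. That order of the pair held with transcript length as well (2447 against 761 in CAOV3, 724 against 2563 in TOV21G). On both lengths ELOVL7 was the lowest of the 7 in CAOV3, at 12.9 normalised counts per kilobase of exon. ELOVL6 had the lowest mean in TOV21G on both lengths, at 196 per kilobase of exon, where its libraries (187 to 206) overlapped those of FADS3 (202 to 223). Per kilobase of exon, ELOVL5 was highest in CAOV3, at 1496, while in TOV21G ELOVL5 (1149 to 1217) and ELOVL1 (1088 to 1326) overlapped at the top. With transcript length FADS1 led in CAOV3 and FADS2 in TOV21G.

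Other genes of the pathway were read from lists around the 7 enzymes. Of 73 list genes tested, 7 were called lower and 0 higher in CAOV3, and 5 were called lower and 0 higher in TOV21G. Over all genes tested, 1.1% were called lower in CAOV3 and 0.267% in TOV21G. The calls in CAOV3 were INSIG1, SREBF1, SREBF2, SCD, ACSL3, FASN and MYRF, and those in TOV21G were the first 5 of these. Among 14 regulators, 3 were lower in both lines: SREBF1 and SREBF2, which encode the SREBP transcription factors, and INSIG1, which retains them in the endoplasmic reticulum and is itself an SREBP target. INSIG1 normalised counts were 1444, 1401 and 1536 in the CAOV3 controls and 839, 785 and 779 with ascites, a log2 difference of -0.87 (SE 0.05, limma adjusted p = 8.27e-07). In TOV21G it went from 1350, 1274 and 1334 to 890, 934 and 879, a log2 difference of -0.55 (limma adjusted p = 0.000199). Neither line's INSIG1 groups overlapped. For INSIG1 the TOV21G difference minus the CAOV3 difference was 0.32 (SE 0.07) and did not pass in limma (adjusted p = 0.0779). It was called by edgeR (adjusted p = 0.015) and DESeq2 (adjusted p = 0.0237).

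SREBF1 had log2 differences of -0.32 in CAOV3 (limma adjusted p = 0.00125) and -0.27 in TOV21G (limma adjusted p = 0.0135). The TOV21G call of SREBF1 was lost without TOV21G control 3, ascites 1 or ascites 3, with an adjusted p of up to 0.0675, without control 1 and ascites 3 together (0.0886), and with only the 6 TOV21G libraries in the fit (0.156). SREBF2 had -0.34 (limma adjusted p = 0.000476) and -0.39 (limma adjusted p = 0.000521). FADS1 and FADS2 in CAOV3 were thus lower in the same libraries as all 3 of these regulators, and SREBP protein was not measured. On opposite strands, SREBF1 shares 556 exonic bases with RAI1 and SREBF2 shares 280 with SREBF2-AS1. Reads from those bases could not be assigned to 1 gene with certainty.

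SCD, which makes monounsaturated fatty acids and is the counterpart of the FADS enzymes on saturated chains, was lower in both lines. Its normalised counts were 43713, 42182 and 45140 in the CAOV3 controls and 32248, 31979 and 32970 with ascites, a log2 difference of -0.43 (SE 0.05, limma adjusted p = 0.000737). In TOV21G they were 1760, 1607 and 1674 against 916, 868 and 794, a log2 difference of -0.97 (limma adjusted p = 2.16e-06). The difference between the lines was -0.54 (SE 0.07, limma adjusted p = 0.00664), the opposite sign to FADS2, whose value of 0.33 did not pass. ACSL3, an acyl-CoA synthetase of lipid droplets, was lower by 0.29 in CAOV3 and 0.26 in TOV21G on the log2 scale (limma adjusted p = 0.00805 and 0.0378). FASN, fatty acid synthase, was called in CAOV3 (log2 difference -0.23, limma adjusted p = 0.018) and not in TOV21G (-0.14, adjusted p = 0.317). The CAOV3 call of ACSL3 was lost without CAOV3 ascites 2 (adjusted p = 0.0501), and that of FASN without any one CAOV3 library other than control 3 (up to 0.0893). The TOV21G call of ACSL3 was lost without TOV21G control 1, control 3, ascites 1 or ascites 3 (up to 0.161), without CAOV3 control 1 or any CAOV3 ascites library, without TOV21G control 1 and ascites 3 together (0.241), and with only the 6 TOV21G libraries (0.191).

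The genes that work beside the 7 enzymes were called in neither line. These were 6 partners in the elongation cycle, 6 cytochrome b5 and reductase genes that supply electrons to the desaturases, 9 genes that place the products in phospholipids, 6 peroxisomal genes and 7 genes of arachidonate release and oxygenation. Over these 34 genes limma, edgeR and DESeq2 each called 0 in both lines, where limma called 1.73% and 0.409% of all genes, so a count of 0 is near the background. An unadjusted limma p under 0.05 was reached by 4 of the 34 in CAOV3 (12.9% of all genes) and by 1 in TOV21G (9.17% of all genes).

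**Figure D4:**
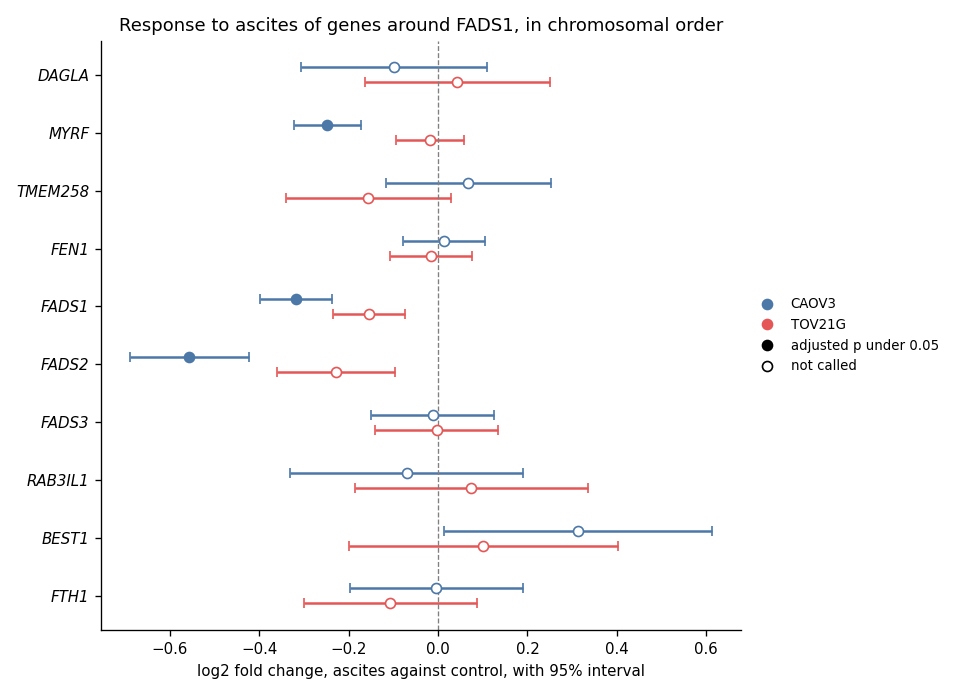
Log2 difference of ascites minus control (horizontal axis) for the tested genes of the FADS locus in their order on chromosome 11 (vertical axis, distances not to scale), in CAOV3 (blue) and TOV21G (red), with bars for the 95% interval, not adjusted for the number of genes, and filled points for genes past the adjusted threshold. FADS1, FADS2 and MYRF lie below 0 in CAOV3, while FEN1 and FADS3 on either side of the pair lie near 0.

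At the FADS locus, 1 gene beside the pair passed the test. In order along the chromosome the tested genes are DAGLA, MYRF, TMEM258, FEN1, FADS1, FADS2, FADS3, RAB3IL1, BEST1 and FTH1. Of the 7 neighbours, limma called only MYRF in CAOV3 (log2 difference -0.25, adjusted p = 0.0021), where it called 1.73% of all genes. The same 1 gene was called by edgeR and DESeq2. MYRF and BEST1, the latter higher, had an unadjusted limma p under 0.05 in CAOV3 (12.9% of all genes). In TOV21G limma, edgeR and DESeq2 called 0 (0.409% of all genes in limma), and none had an unadjusted p under 0.05. For the difference between responses, MYRF was called by edgeR (adjusted p = 0.0406) and DESeq2 (adjusted p = 0.0187) but not in the main limma fit (adjusted p = 0.0652). FEN1, a DNA repair nuclease whose exons touch those of FADS2, had a log2 difference of 0.01 in CAOV3 and -0.02 in TOV21G. TMEM258 gave 0.07 and -0.16, DAGLA -0.10 and 0.04, RAB3IL1 -0.07 and 0.07, BEST1 0.31 and 0.10, and FTH1 -0.00 and -0.11. BEST1 shares 1267 exonic bases with FTH1 on the opposite strand and had 79.9 ± 15.2 normalised counts in CAOV3 controls against 75911 ± 2972 for FTH1 (SD, n = 3), so the BEST1 value is uncertain. MYRF, a membrane-bound transcription factor, shares 400 exonic bases with TMEM258 on the opposite strand, so its reads carry the same uncertainty as those of FADS1.

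Over the 12 libraries, with each line centred on its own mean, the gene whose pattern was most like FADS1 was HMGCS1, a cholesterol synthesis enzyme (Pearson r = 0.982), followed by ZCCHC24 and FADS2 (0.977 each). For FADS2 the order was FADS1 (0.977), RAB5B (0.971) and NXPE3 (0.968). These were picked from 10284 genes, and the treatment groups are part of each pattern. ELOVL6 was correlated with FADS1 at 0.717 and with FADS2 at 0.721, while FADS3 gave 0.265 and 0.317. The genes most like ELOVL5 were C2orf42 (0.960), MELK (0.958) and CHMP2B (0.957), and those most like ELOVL6 were ARMCX3 (0.952), PDCD6IP (0.950) and DCAF6 (0.947).

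The 12 libraries held 26697609 to 34491304 reads over genes, with 18153 to 18426 genes having a read. PAX8, WT1 and MUC16, markers of serous ovarian carcinoma, were near 0 in CAOV3 controls, so they did not bear out its serous label. PAX8 had 18.2, 20.4 and 18.8 normalised counts there, WT1 had 5.67, 2.15 and 5.94, and MUC16 had 11.3, 12.9 and 11.9. Epithelial markers summed to 131717 to 132806 in CAOV3 controls and 153330 to 162634 with ascites, and to 10412 to 12423 over the TOV21G libraries. The 2 leukocyte markers with a row, of 7 listed, summed to 117 to 134 in CAOV3 controls and 101 to 125 with ascites, and to 8.39 to 20.4 in TOV21G, with LYZ at 0 in all TOV21G libraries. Fibroblast markers, 3 of 4 with a row, summed to 4214 to 4914 in CAOV3 controls and 3812 to 4009 with ascites, without overlap. LUM carried that sum (4196 ± 366 in controls, 3647 ± 100 with ascites, SD, n = 3) and was not called (limma adjusted p = 0.936). COL1A1 was lower without overlap but not called (limma adjusted p = 0.205), and PDGFRB overlapped. In TOV21G the fibroblast sums overlapped, at 1822 to 2039 in controls and 1768 to 1927 with ascites. The epithelial sum in CAOV3 was carried by KRT8 (66468 ± 562 in controls, 81372 ± 2435 with ascites, SD, n = 3) and KRT18 (47679 ± 404 and 59866 ± 1718). CDH1 went the other way, at 455, 389 and 430 in controls and 266, 268 and 281 with ascites, and KRT19 overlapped between groups. The part of these markers in the fall of FADS1 and FADS2 was not tested. Mesothelial sums overlapped between groups in both lines, and the 3 erythroid markers were not analysed here.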

How the data were processed

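RNA from 12 cultures (2 cell lines, 4 groups, 3 libraries each) was sequenced, and 1 table of values per Ensembl gene was deposited for each library. Per the submitters' processing notes, Trim Galore, cutadapt, STAR, HTSeq and DESeq were used, without versions or roles. The aligner settings, genome build, annotation and strandedness are not given in the sources used here. The deposited values are a signal of normalised counts: in each library 100% of values were whole multiples of 1 step, within 0.01 reads. The reciprocal of the step matched a median-of-ratios size factor, so reads were recovered by dividing the values by the step. Symbols came from a gene name table and GENCODE release 29.

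Since the values are normalised, the main test was limma 3.58.1 (R 4.3.3) with a trend on log2(value + 1), a pseudocount of 1, over genes with a value of at least 10 in at least 3 libraries. One mean was fitted per group over all 12 libraries, and differences are on that log2 scale. Calls were made at a Benjamini-Hochberg adjusted p under 0.05 over the 17616 genes tested. The script was tested on simulated data. The alternatives were edgeR 4.0.16 and DESeq2 1.42.0 on recovered reads, other pseudocounts, filters and scaling, fewer libraries, a replicate block, and 1 omission chosen after seeing the data. Named genes were all 7 enzymes, SCD, SREBF1, SREBF2, INSIG1, every list gene called in either ascites comparison, the genes of the FADS locus, and the 3 genes most like FADS1, FADS2, ELOVL5 and ELOVL6 with a mean of at least 100 in each line. The 7 genes and the lists were chosen with earlier results of these data known. Genes of the lists without a row, such as ELOVL2, were not analysed here.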

Additional observations from a re-analysis of the deposited data

Results flagged for a closer look

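The response of SCD to ascites differed between the lines. The TOV21G log2 difference minus the CAOV3 log2 difference was -0.54 (SE 0.07), and this difference passed the limma test across all genes (adjusted p = 0.00664), with the fall in TOV21G (-0.97) larger than that in CAOV3 (-0.43). In each line the 3 ascites libraries lay below the 3 controls.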

How the results depend on the processing

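For the 7 enzymes, 604 of 609 values under an alternative stayed on the same side of the threshold and 5 passed it anew. No called value changed sign. Some values that were not called did, such as the log2 difference of ELOVL1 in TOV21G (from -0.14 to 0.06). The enzymes called lower in CAOV3 numbered 2 in every omission of 1 library (2 to 2), and those in TOV21G and in the difference between responses 0 (0 to 0), while 7 differed at baseline (7 to 7). DESeq2 called 2 enzymes in TOV21G, and edgeR and DESeq2 called 1 in the difference between responses. Over all genes, CAOV3 calls numbered 305, against 511 with edgeR, 507 with DESeq2, 1295 with only the 6 CAOV3 libraries and 162 to 345 with 1 library left out. TOV21G calls numbered 72 (25 higher), against 114 with edgeR (51 higher), 150 with DESeq2, 22 with only its 6 libraries and 24 to 137 with 1 library left out. The difference between responses had 96 calls, against 148 with edgeR, 212 with DESeq2, 57 without TOV21G control 1 and ascites 3, and 35 to 147 with 1 library left out. Baseline calls numbered 14480, against 13992 to 14539 with 1 library left out. They numbered 15203 without a filter and 11990 with a value of at least 50 in 3 libraries. The cause of these shifts was not tested. Same-numbered libraries did not deviate together (r from -0.05 to 0.01 in CAOV3 and from -0.39 to 0.04 in TOV21G). Differently numbered TOV21G libraries gave r from -0.34 (control 1 with ascites 3) to 0.41 (control 1 with ascites 2). With only 3 libraries per group, these values cannot settle whether libraries were handled in pairs by number. With a replicate block, 116 genes were called in the CAOV3 comparison and 13 in that of TOV21G. The block left 9 for the difference between responses, 1 of them higher, against 42 of 96, and it kept FADS1 and FADS2 called in CAOV3. The block lost the calls of ACSL3 (adjusted p = 0.0823), FASN (0.179) and MYRF (0.0701) in CAOV3, of ACSL3 (0.272) and SREBF1 (0.177) in TOV21G, of MYRF at baseline (0.0592), and of SCD in the difference between responses (0.0827).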

Other observations

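The lines also differed at baseline in genes that handle the products of the 7 enzymes, named here after their values were seen. PTGS2, the inducible cyclooxygenase that turns arachidonic acid into prostaglandin precursors, had 1072, 1110 and 1207 normalised counts in the CAOV3 controls and 0, 1.05 and 0 in the TOV21G controls. PLA2G4A, the phospholipase that releases arachidonic acid from membranes, had 1187 ± 72.6 (SD, n = 3) in CAOV3 and 12.4 ± 1.81 in TOV21G (limma adjusted p = 1.83e-12). PTGS1, the constitutive cyclooxygenase, went the other way, at 6.65 ± 1.96 in CAOV3 and 115 ± 14.1 in TOV21G. None of these 3 genes passed the limma test with ascites in either line, nor in edgeR or DESeq2, and none had an unadjusted p under 0.05.

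ELOVL4, the elongase of the longest polyunsaturated chains, had 0 reads in all 6 CAOV3 libraries and 673 ± 23.3 normalised counts in the TOV21G controls, at least 210-fold higher against a floor of 3 reads per library. ACSL1, an acyl-CoA synthetase, had 162 ± 21.1 in CAOV3 and 5777 ± 153 in TOV21G. FFAR4, a receptor for long-chain polyunsaturated fatty acids, had 381, 349 and 406 normalised counts in the CAOV3 controls and 0 in each TOV21G control.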
